A study of Mus musculus with 9 samples.

Results

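The humanlincRNA elements were 1217 of the 59709 probes on a mouse expression array, chosen as all probes outside the array's controls whose name begins with humanlincRNA. Each was read from 1 spot per array. The names carry a number and a + or - sign, taken here as the strand, and 608 numbers had a probe for both strands. Abdominal aorta RNA of male mice was measured on 9 one-colour arrays, 3 per group. The control mice are titled wild type. The CaPO4 mice had an abdominal aortic aneurysm induced with calcium phosphate, and the naringenin mice had such an aneurysm and were treated with naringenin, a flavonoid of citrus fruit. Strain, age, dose and duration are not given in the sources used here. Aortas were mixed, per the series' design text, without a statement of how the mixed material was divided among the 3 arrays of a group. All p-values below therefore measure the spread between these arrays, which may be technical.

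Long intergenic noncoding RNAs (lincRNAs) are transcripts made from the stretches between protein-coding genes, processed much as messenger RNAs are but not translated. As a class they are of low abundance and are often restricted to particular cell types, and their sequence is in general less conserved between species than that of coding genes. A lincRNA described in human may therefore have a transcribed counterpart in mouse or may have none, and what most of these elements do in the arterial wall is not established. Their roles are left unnamed here for that reason.

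Levels are log2 intensity less the array's own 75th percentile, which is thus at 0, and a probe was called detected where the scanner marked its spot as well above background. Several facts of the arrays touch every result below. The intensity at the 75th percentile was 42.6 to 44.4 arbitrary units on CaPO4 1 and 3, 83.4 to 117 on CaPO4 2, the controls and naringenin 1 and 2, and 235 on naringenin 3. Naringenin 3 also stood apart in sensitivity: its dimmest spot well above background lay at -4.32, against -2.71 to -1.19 on the other 8 arrays. The 3 controls shared 1 scan date that held no other array, naringenin 3 had one of its own, and the other 5 arrays shared the remaining one, so in comparisons with control the scan cannot be told apart from the group. CaPO4 2 was unlike CaPO4 1 and 3. Over the 140 humanlincRNA probes detected on all 9 arrays with a value on each, CaPO4 1 and 3 correlated at r = 0.994, whereas CaPO4 2 correlated with them at 0.779 and 0.791 and with naringenin 1 and 2 at 0.964 and 0.966. These correlations run across probes of the same arrays and describe likeness only. On CaPO4 2, 115 of the 140 probes (82.1%) were nearer the mean of naringenin 1 and 2 than the mean of CaPO4 1 and 3. Amy2a5, a gene of pancreatic amylase and the only one of 5 pancreatic acinar markers on the array, had a level of 0.14 to 0.74 for controls, 2.07, 11.08 and 2.08 for CaPO4 1, 2 and 3, and 9.96 to 11.15 for naringenin. Ccl21b and Ccl21c, chemokine genes of lymphatic vessels and lymph node stroma and 2 of 5 markers of that list, lay at 4.97 to 5.62, 7.62 to 9.74 and 8.54 to 9.62 in the same order of groups. The markers of smooth muscle, endothelium, fibroblasts, macrophages and fat were not named on the array, so the labelled tissue could not be checked against them. In such bulk RNA, fewer cells of a type and less RNA per cell cannot be told apart, and the part of other tissue in the changes below was not tested.

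Most humanlincRNA elements were dim or undetected in these aortas. The probes well above background numbered 392, 326 and 328 for controls 1, 2 and 3 (32.2, 26.8 and 27.0%), 215, 328 and 194 for CaPO4 1, 2 and 3 (17.7, 27.0 and 15.9%), and 366, 259 and 819 for naringenin 1, 2 and 3 (30.1, 21.3 and 67.3%). On every array this was below the share of all probes, which was 51.0 to 57.0% for controls, 37.1 to 56.7% on CaPO4 arrays and 48.3 to 84.1% for naringenin. CaPO4 1 and 3 were the lowest arrays and naringenin 3 the highest, and the groups overlapped in each comparison. The mean share was 28.6% ± 3.08 (SD, n = 3) in controls, 20.2% ± 5.92 in CaPO4 and 39.6% ± 24.4 in naringenin mice. Exact two-sided permutation tests over arrays gave p = 0.30 for CaPO4 against control, 0.20 for naringenin against CaPO4 and 0.80 for naringenin against control, where 3 against 3 arrays cannot go below 0.10. Adjusted over the 12 such comparisons of detection made (Benjamini-Hochberg), these p-values were 0.514, 0.48 and 0.96.

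Negative spots of the design, named MM9NEGATIVE, moved with these shares. Of 1200 such spots, 14.6, 9.50 and 8.92% were well above background for controls, 3.33, 8.92 and 1.08% for CaPO4 1, 2 and 3, and 12.1, 9.08 and 41.4% for naringenin 1, 2 and 3. When a probe instead had to exceed the 95th percentile of the negative spots of its own array, 18.7, 18.7 and 20.5% of humanlincRNA probes did so for controls, 20.1, 20.6 and 22.6% for the CaPO4 arrays, and 17.1, 18.2 and 26.3% for naringenin. By that rule CaPO4 1 and 3 were no longer the lowest arrays, and naringenin 3 was still the highest array.

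Detection across arrays was patchy. Of the 1217 elements, 347 were detected on no array, 453 on 1 or 2 arrays, 273 on 3 to 8 and 144 on all 9 (11.8%, against 32.3% of all probes). Naringenin 3 alone accounted for 314 elements that no other array detected. The 417 elements detected on at least 3 of the 9 arrays (34.3%, against 62.8% of all probes) were kept for tests, and 363 would have been kept without naringenin 3. By the rule on negative spots 295 elements (24.2%) reached 3 arrays. A pattern of 3 of 3 controls and 0 of 3 CaPO4 arrays was seen for 50 elements (4.11%, against 3.58% of all probes), and the reverse for 7. For naringenin, 35 elements were on 3 of 3 naringenin and 0 of 3 control arrays (2.88%, against 4.41% of all probes), and 7 showed the reverse.

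The other element classes of the array give a scale for these shares. The mouselincRNA class (691 probes) and ultraconserved elements (962 probes), which are stretches identical between mammalian genomes, were kept at 36.9 and 32.6%. The MM9LINCRNAEXON class (3457 probes), named for exons of mouse lincRNAs, was kept at 54.2%. On each of the 9 arrays the detected share of humanlincRNA probes was below that of both mouse classes. No test was run on these differences.

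The 2 strands of an element were seldom seen together. Of the 608 pairs, 83 had both probes kept, 122 only the + probe, 129 only the - probe and 274 neither. Where the + probe was kept, 40.5% of - probes were too, and where it was not, 32.0% were. On all 9 arrays, 11 pairs were detected on both strands, 71 on the + strand alone and 51 on the - strand alone.

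The brightest humanlincRNA probes detected on all arrays were humanlincRNA2296+, humanlincRNA2199+, humanlincRNA2159-, humanlincRNA2330+ and humanlincRNA0847-. For humanlincRNA2199+ the levels were 8.74, 8.86 and 9.0 for controls, 8.66, 4.79 and 8.70 for CaPO4 1, 2 and 3, and 4.68, 4.73 and 5.22 for naringenin 1, 2 and 3. CaPO4 1 and 3 lay just under the controls, and CaPO4 2 lay among the naringenin arrays. Its log2 change was -1.48 ± 0.87 (SE) in CaPO4 against control (limma adjusted p = 0.236) and it fell by 3.99 ± 0.87 in naringenin against control (15.9-fold, adjusted p = 0.00517, n = 3 per group). The probe humanlincRNA2159- had levels of 8.34, 8.47 and 8.55, then 7.79, 4.77 and 7.54, then 4.74, 4.63 and 6.24. Both aneurysm groups lay below all controls, and naringenin against control fell by 3.24 ± 0.74 (9.47-fold, adjusted p = 0.0066). The levels of humanlincRNA2330+ were 7.86, 7.70 and 7.71 for controls, 8.63, 5.27 and 8.52 for CaPO4, and 4.70, 4.97 and 5.5 for naringenin. Here CaPO4 1 and 3 lay above the controls and CaPO4 2 below them, and naringenin against control fell by 2.70 ± 0.76 (6.49-fold, adjusted p = 0.0165).

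The controls of the other bright probes were mostly lost to the scanner's outlier marks. The probe humanlincRNA2296+ kept 1 control, at 8.67, beside 9.62, 5.77 and 9.45 for CaPO4 and 5.83, 5.87 and 6.38 for naringenin. Neither of its changes against control passed the test (adjusted p = 0.856 and 0.137), in which the lone control is assumed to vary like the other groups, so little can be read from them. The probe humanlincRNA0847- kept no control value and read 8.84, 5.02 and 8.49 for CaPO4 and 4.93, 5.12 and 5.77 for naringenin. In both, CaPO4 2 stood with the naringenin arrays, and neither difference of naringenin from CaPO4 passed the test (adjusted p = 0.176 and 0.181).

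CaPO4 against control addressed how the elements differ once an aneurysm has formed. Of the 414 humanlincRNA probes kept with a value in each group, 47 were called higher and 84 lower (11.4 and 20.3%; limma adjusted p under 0.05), where 21.5% of all 37307 probes tested were called, 10.1% higher and 11.4% lower. Their median log2 change was -0.42, against -0.04 for all probes. The mouselincRNA class lay near them, with 11.4% called higher, 18.8% lower and a median of -0.31. Ultraconserved probes had 11.1 and 13.1% called and a median of -0.15, and MM9LINCRNAEXON probes 9.99 and 13.9% and -0.13. The filter can keep a probe through 1 group alone, so these are descriptions of the probes that passed and not of all elements. Called rises had a median size of 1.76 and called falls of 2.02 on the log2 scale. In 46 of the 84 falls no CaPO4 array detected the probe, and in 29 of the 47 rises no control did, so most fitted sizes rest on values at or near background. On CaPO4 1 and 3, signals that were not positive and significant had been set to a fixed low value (-3.76 and -3.51), which 56.6 and 61.8% of the elements had, and for controls such signals (34.1 to 44.8% of elements) lay at -4.58 to -4.44. Values at such a floor have no order among themselves.

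The surplus of falls over all probes differed between settings. Among the 141 elements detected on all 9 arrays, 16 were called higher and 15 lower (11.3 and 10.6%), against 11 and 7.22% of all such probes, and the medians were -0.20 and 0.15. With each array centred on its own median in place of the 75th percentile, 63 were called higher and 63 lower (15.2% each), against 14.0 and 7.96% of all probes, with medians of -0.21 and 0.19. After normexp background correction 43 were called higher and 35 lower (10.4 and 8.45%), against 8.19 and 6.95% of all probes, and the medians were 0.09 and 0.14. Without CaPO4 2, the calls were 65 and 91 (15.7 and 22.0%), against 14.1 and 17.4% of all probes, and the medians -0.20 and -0.11. With no filter on detection the medians were 0.30 and 0.14, and the calls 45 and 67 (3.71 and 5.52%), against 4.85 and 5.42% of all probes. The gap between the medians was thus similar to that given above for elements detected on all 9 arrays, and narrower or turned in the last 3 of these settings. Centring on the array's median shifts all probes of an array alike, so it could change the calls but could not test that gap.

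The elements with the largest called falls after CaPO4 included 2 that were detected on all 9 arrays. Levels of humanlincRNA2161- were 4.02, 3.82 and 4.02 for controls, 1.46, -1.25 and 1.35 for CaPO4 1, 2 and 3, and -0.93, -1.32 and -0.64 for naringenin 1, 2 and 3. All aneurysm arrays lay below all controls, and CaPO4 2 lay with the naringenin arrays. The fall in CaPO4 was 10.8-fold (log2 change -3.44 ± 0.63, adjusted p = 0.00728), and it stayed called with each array left out in turn, at -3.91 to -2.55. For humanlincRNA0318+ the levels were 7.42, 7.59 and 7.78 for controls, 6.07, 1.68 and 5.43 for CaPO4 and 1.74, 1.96 and 3.04 for naringenin. The groups did not overlap and the CaPO4 fall was 9.22-fold (log2 change -3.20 ± 0.94, adjusted p = 0.0373). That call was lost without any 1 control (adjusted p = 0.0937, 0.0994 and 0.0993 without control 1, 2 and 3) and without any 1 naringenin array (0.0531, 0.0552 and 0.0544), and the change was -1.85 without CaPO4 2.

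In the other 3 named falls the probe faded to background. The probe humanlincRNA2233- read 1.18, 1.11 and 1.03 for controls and -2.59, -2.89 and -1.15 for CaPO4 1, 2 and 3, and was at least 7.33-fold lower (1 of 3 CaPO4 arrays detected, adjusted p = 0.00976). Controls of humanlincRNA1750- lay at -0.08, -0.05 and -0.10 against -3.76, -2.57 and -3.51, at least 3.13-fold lower (1 of 3 detected, adjusted p = 0.00269). For humanlincRNA0830+ the values were 0.46, 0.63 and 0.59 against -1.72, -2.60 and -3.32, at least 4.93-fold lower (0 of 3 detected, adjusted p = 0.0084). A fold written as at least sets undetected values at the dimmest well-above-background spot of their array, where that is higher. Values marked detected were kept as read. On all arrays but CaPO4 1 and 3 that dimmest spot lay below the 95th percentile of the array's negative spots. Such folds are therefore bounds by the scanner's mark and not bounds against the negative spots.

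Named rises after CaPO4 all started from undetected controls. The largest was humanlincRNA2253-, with -3.19, -3.34 and -3.49 for controls, 0.95, -0.82 and 0.81 for CaPO4 1, 2 and 3 and -0.90, -0.67 and -1.38 for naringenin. All 6 aneurysm arrays lay above all controls, and again CaPO4 2 had a value like those of naringenin. It was at least 5.68-fold higher in CaPO4 (adjusted p = 0.00252). The probe humanlincRNA1166+ rose from -2.85, -2.46 and -4.02 to 0.03, 0.27 and -0.22, at least 4.64-fold (adjusted p = 0.00284). The rise of humanlincRNA0296+ was from -4.58, -2.91 and -3.99 to -0.76, -0.33 and -0.96, at least 2.84-fold (adjusted p = 0.00306). In both, CaPO4 2 was near CaPO4 1 and 3. The remaining named rises were smaller against background: at least 2.08-fold for humanlincRNA1230- (2 of 3 CaPO4 arrays detected, adjusted p = 0.00251) and at least 2.09-fold for humanlincRNA0629+ (1 of 3 detected, adjusted p = 0.00252). All 5 stayed called with each array left out in turn.

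**Figure D1:**
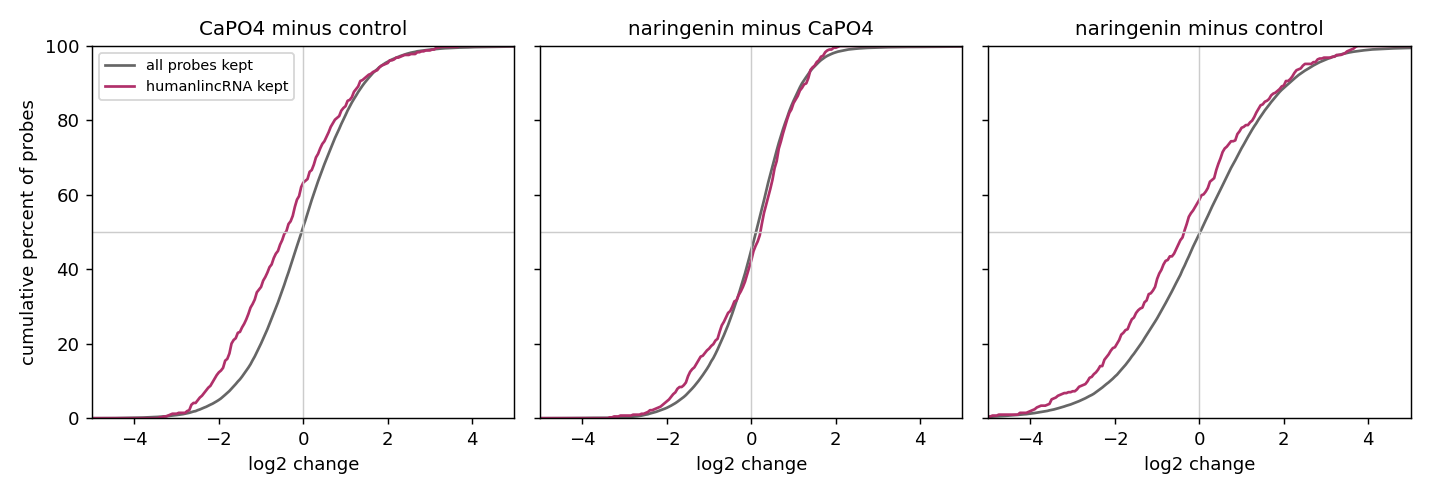
Cumulative percent of probes (vertical axis) against the log2 change (horizontal axis) for the kept humanlincRNA probes and all kept probes, in each of the 3 comparisons. The humanlincRNA curve runs to the left of the curve of all probes in both comparisons with control, with medians of -0.42 against -0.04 for CaPO4 and -0.36 against 0.02 for naringenin, and close to it for naringenin minus CaPO4 (0.21 against 0.11).

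Naringenin against control gave more calls. Of 414 humanlincRNA probes tested, 86 were called higher and 122 lower (20.8 and 29.5%; limma adjusted p under 0.05), where 45.9% of all probes tested were called, 22.6% higher and 23.3% lower. The median log2 change was -0.36, against 0.02 for all probes. It was -0.25 for both mouselincRNA and ultraconserved probes (25.9 and 27.7% called lower) and 0.05 for MM9LINCRNAEXON probes (24.5% called lower). In 48 of the 86 rises no control array detected the probe. In 8 of the 122 falls no naringenin array did, and in 65 of them 1 or 2 did. Both comparisons with control use the same 3 control arrays. Among the 141 elements detected on all 9 arrays, 20 were called higher and 45 lower (14.2 and 31.9%), against 21.4 and 22.4% of all such probes, and the medians were -0.32 and 0.07. After normexp correction 57 were called higher and 90 lower (13.8 and 21.7%), against 17.2 and 17.7% of all probes, with medians of -0.15 and -0.02. The median of the elements less that of all probes was -0.37, and it was -0.66 without naringenin 3 and -0.23 without naringenin 2.

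In naringenin against control, called falls took a larger share of the brighter elements than of the dimmer ones. All kept probes were divided into equal parts by their mean level over the 9 arrays, and the upper part held 79 testable humanlincRNA probes. Of these, 32 were called lower and 10 higher in naringenin against control (40.5 and 12.7%), where 21.6% of all probes of the upper part were called lower and 24.1% higher. Their median log2 change was -0.85, against 0.26 for all probes of that part. In the lower part 56 of 207 elements were called lower (27.1%, against 24.6% of all its probes) and the median was -0.36 against -0.11. In the middle part 34 of 128 were called lower (26.6%, against 23.8%) and the median was -0.08 against -0.11. This division was chosen after the values had been seen. Over 16 settings, which changed the scaling or background correction or left out arrays, the upper median of the elements ranged from -1.16 to -0.71 and that of all probes from -0.04 to 0.43, and the share called lower was above that of all probes in 16 of 16. These settings share most of their data and are not separate support. Scaling of whole arrays shifts both medians alike, and leaving out a CaPO4 array left them at -0.85 and 0.26.

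In CaPO4 against control the upper part held 9 elements called lower and 7 higher (11.4 and 8.86%, against 7.21 and 12.8% of all its probes). The median there was -0.23 against 0.24. In this comparison the share called lower was smallest in the upper part, for the elements and for all probes alike. Of the elements, 21.1% were called lower in the middle part and 23.2% in the lower part (10.9 and 15.9% of all their probes). Without CaPO4 2 the median of the upper part was 0.31 against 0.05, with 14 elements called lower and 19 higher (17.7 and 24.1%, against 15.1 and 18.8% of all its probes). In naringenin against CaPO4, 0 of 82 elements of the upper part were called lower, with 1.54% of all its probes so called, and the median was -0.73 against 0.02. Without CaPO4 2, 48 of the 82 were called lower (58.5%, against 24.4% of all its probes). With naringenin 3 left out too, which leaves naringenin 1 and 2 and CaPO4 1 and 3 of a single scan date beside the controls, 54 were called lower (65.9%, against 29.8%).

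**Figure D2:**
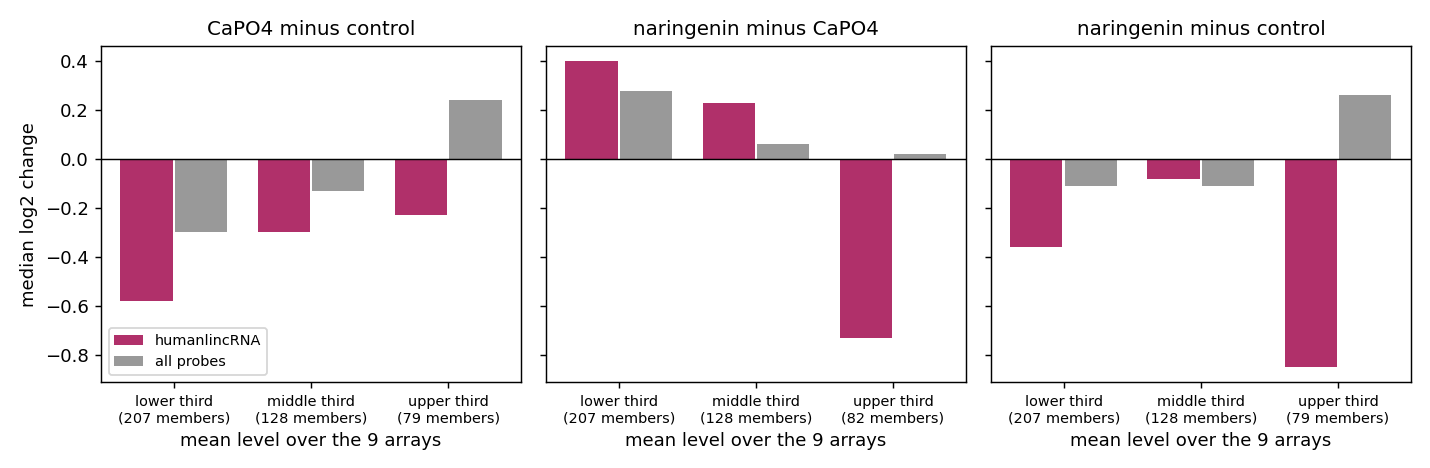
Median log2 change (bars) of humanlincRNA probes and of all probes, for kept probes divided into 3 equal parts by mean level over the 9 arrays, in each comparison. In the upper part the humanlincRNA median was -0.23, -0.73 and -0.85 for CaPO4 minus control, naringenin minus CaPO4 and naringenin minus control, against 0.24, 0.02 and 0.26 for all probes.

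The largest falls in naringenin against control were of elements that the controls read brightly and evenly. The probe humanlincRNA2010- read 3.16, 3.20 and 3.12 for controls, 1.82, -2.37 and 1.70 for CaPO4 1, 2 and 3 and -3.10, -2.48 and -3.40 for naringenin 1, 2 and 3. All naringenin arrays and CaPO4 2 were near background, and CaPO4 1 and 3 lay in between. By the scanner's mark it was at least 57.9-fold lower in naringenin (1 of 3 arrays detected, log2 change -6.15 ± 0.92, limma adjusted p = 0.00121). The detected array was naringenin 3, whose -3.40 lay below the 95th percentile of its negative spots (-1.75). Against the negative spots 57.9-fold is thus not a lower bound. Its CaPO4 change of -2.78 ± 0.92 did not pass (adjusted p = 0.0566), although the groups did not overlap, and passed without CaPO4 2 at -1.40 (adjusted p = 0.00921). The fall of humanlincRNA0318+, whose levels are given above, was 40.9-fold in naringenin (log2 change -5.35 ± 0.94, adjusted p = 0.00211), and that of humanlincRNA2161- was 30.3-fold (-4.92 ± 0.63, adjusted p = 0.000751).

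A further pair showed the same order of arrays. Levels of humanlincRNA0806+ were 6.45, 6.46 and 6.45 for controls, 5.32, 1.52 and 5.17 for CaPO4 and 1.5, 1.59 and 1.96 for naringenin, a 27.3-fold fall in naringenin (log2 change -4.77 ± 0.83, adjusted p = 0.00206). Levels of humanlincRNA1046+ were 6.12, 5.99 and 6.20, then 3.82, 1.43 and 4.17, then 1.38, 1.36 and 2.72, a 19.5-fold fall (-4.28 ± 0.67, adjusted p = 0.00138). In both, the controls were highest, CaPO4 1 and 3 intermediate, and CaPO4 2 and the naringenin arrays lowest. Each of the 5 named falls stayed called with each array left out in turn, and their changes then ranged from -6.41 to -4.06. They also kept their call after normexp correction.

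Among the named rises in naringenin, only humanlincRNA1114+ was detected on all 9 arrays. Its levels were -1.63, -1.94 and -0.88 for controls, 0.68, 1.06 and 0.81 for CaPO4 1, 2 and 3 and 1.93, 1.93 and 2.78 for naringenin 1, 2 and 3. No group overlapped another, and CaPO4 2 lay with the other CaPO4 arrays. The rise was 13.0-fold (log2 change 3.70 ± 0.38, adjusted p = 0.000451), and with an array left out it ranged from 3.41 to 4.0. The other 4 named rises started from undetected controls. They were humanlincRNA1505+ (at least 4.15-fold, adjusted p = 0.000618), humanlincRNA0229- (at least 4.10-fold, 0.000686), humanlincRNA0296+ (at least 4.03-fold, 0.000609) and humanlincRNA1230- (at least 2.64-fold, 0.000576), and each was detected on 3 of 3 naringenin arrays.

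**Figure D3:**
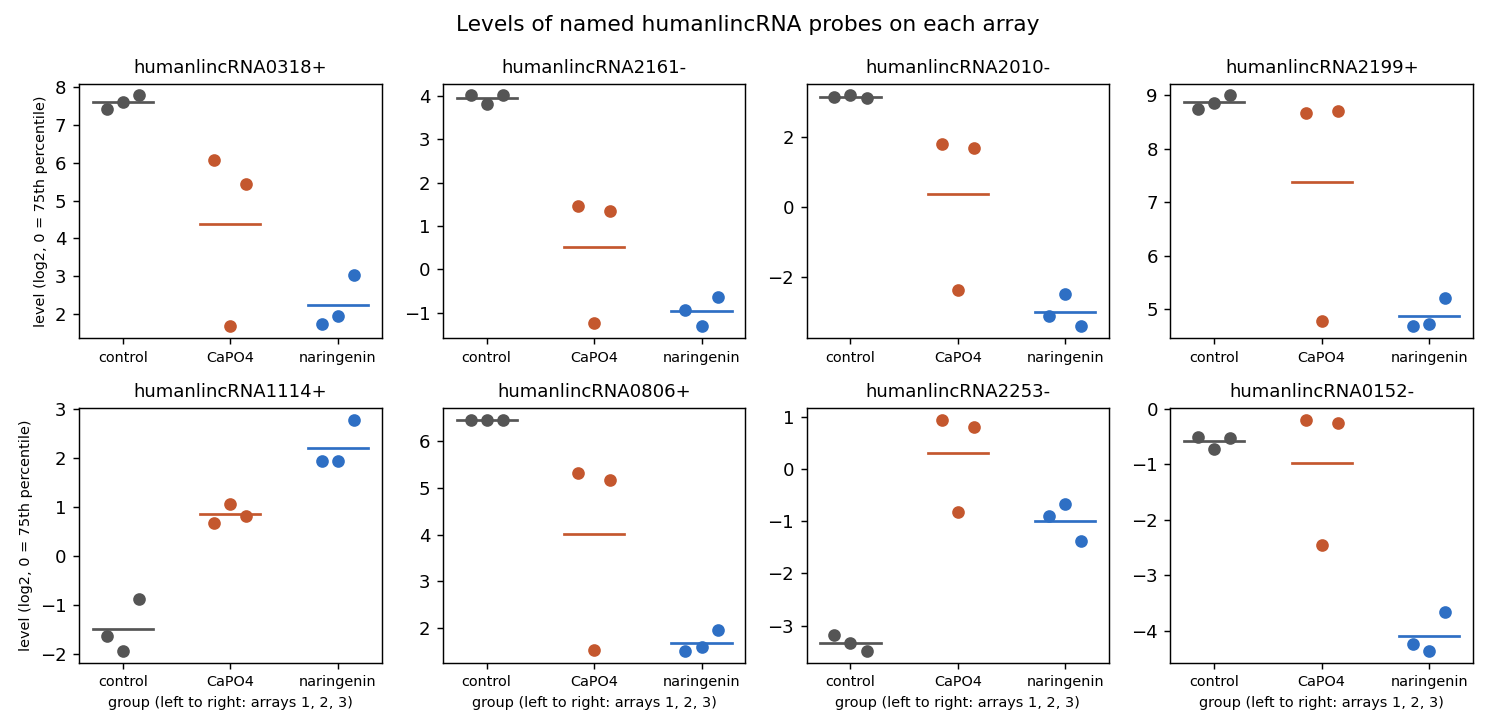
Level on each array (points; log2, 0 at the array's 75th percentile) of 8 named humanlincRNA probes, with the group mean as a line; within a group the points run from array 1 to array 3. Controls lie between 7.42 and 7.78 for humanlincRNA0318+ and at 6.45 to 6.46 for humanlincRNA0806+, and the middle CaPO4 point (CaPO4 2) lies with the naringenin points in most panels but not in that of humanlincRNA1114+.

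Naringenin against CaPO4, the comparison that bears on the treatment, gave few calls with all arrays. Of 417 humanlincRNA probes tested, 1 was called higher and 6 lower (0.240 and 1.44%; limma adjusted p under 0.05), where 2.18% of all 37498 probes were called, 0.808% higher and 1.38% lower. At an unadjusted p under 0.05 there were 132 (31.7%, against 26.8% of all probes). The median log2 change was 0.21, against 0.11 for all probes. Without CaPO4 2 the counts were 69 higher and 103 lower (16.5 and 24.7%), while 25.3 and 20.1% of all probes were then called, the largest effect of leaving out any array. Leaving out both CaPO4 2 and naringenin 3, a setting chosen after the values had been seen, gave 67 higher and 126 lower (16.1 and 30.2%), where 34.0% of all probes were called higher and 24.1% lower. Within the scan date that held CaPO4 1 to 3 and naringenin 1 and 2, 0 were called by limma and 44 had an unadjusted p under 0.05 (10.6%, against 10.8% of all probes).

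The largest of these falls was that of humanlincRNA0152-, with -0.51, -0.72 and -0.53 for controls, -0.20, -2.45 and -0.26 for CaPO4 1, 2 and 3, and -4.24, -4.37 and -3.67 for naringenin 1, 2 and 3. Controls and CaPO4 1 and 3 lay together, the naringenin arrays lay at background, and CaPO4 2 fell between them. By the scanner's mark it was at least 3.52-fold lower in naringenin (1 of 3 arrays detected, log2 change -3.12 ± 0.56, limma adjusted p = 0.0264). The detected array was naringenin 3, whose -3.67 lay below the 95th percentile of its negative spots (-1.75). The probe humanlincRNA0055- read -3.95, -3.08 and -3.06 for controls, -1.32, -2.41 and -1.13 for CaPO4 and -4.03, -4.22 and -4.47 for naringenin. Only the CaPO4 arrays detected it, and it was at least 1.49-fold higher in CaPO4 than in control (adjusted p = 0.0186) and at least 2.62-fold lower in naringenin than in CaPO4 (adjusted p = 0.0187). The rise in CaPO4 was not called without control 1, control 2 or CaPO4 3 (adjusted p = 0.0788, 0.0514 and 0.0528), after normexp (0.134), with no scaling (0.348), with the percentile over detected probes (0.0723) or with scan as a random block (0.0706). The single rise was humanlincRNA0957-, at -3.76, -3.04 and -3.51 for CaPO4 and -1.99, -1.16 and -1.0 for naringenin, at least 1.31-fold higher (adjusted p = 0.0321).

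The other named falls were smaller. They were at least 2.47-fold for humanlincRNA0933- (adjusted p = 0.0483), at least 2.24-fold for humanlincRNA0043- (0.0487) and at least 2.52-fold for humanlincRNA2213- (0.0355), each with 1 of 3 naringenin arrays detected. That array was naringenin 3, at -4.03, -3.92 and -2.78, below the 95th percentile of its negative spots (-1.75). The called falls and the rise named here were all of - probes. For humanlincRNA0152-, humanlincRNA0933-, humanlincRNA0043-, humanlincRNA2213- and humanlincRNA0957- the call was lost without each of the 8 arrays other than CaPO4 2, and humanlincRNA0055- kept it without any 1 control. None of the 6 kept its call after normexp correction.

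A comparison of the 2 strands of an element within an array removes the scaling of the array. The difference in log2 level of the + probe minus the - probe was fitted over the strand pairs of all 4 element classes with both probes kept. In CaPO4 against control it changed in 28 of 82 humanlincRNA pairs (34.1%; limma adjusted p under 0.05), where 26.8% of all 712 pairs were called, with 10 towards the + strand and 18 towards the - strand. In naringenin against control it changed in 35 of 82 pairs (42.7%, against 44.9% of all), 14 towards + and 21 towards -. In naringenin against CaPO4 it changed in 7 of 83 (8.43%, against 5.31% of all). Without CaPO4 2 it changed in 32, a setting in which the share of all pairs was not computed. Changes of the + and the - probe of a pair had little relation across pairs, with r = -0.07 for CaPO4 and 0.09 for naringenin against control over 82 pairs that share the same arrays. In naringenin against control, 8 pairs had both probes called lower, 3 both higher and 7 called in opposite directions.

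Of the pairs called in opposite directions in naringenin against control, humanlincRNA1505 was the largest by the smaller of its 2 changes. Its + probe read -3.75, -3.22 and -4.53 for controls, -2.13, -1.21 and -2.46 for CaPO4 1, 2 and 3 and -0.31, -0.25 and 0.15 for naringenin 1, 2 and 3. Its - probe read -2.25, -1.04 and -1.84, then -3.76, -4.15 and -3.51, then -4.80, -4.26 and -4.16. The + probe was detected on 0 control, 1 CaPO4 and 3 naringenin arrays, the - probe on 3 control arrays alone, and neither probe's control and naringenin values overlapped. The strand difference changed by 6.39 ± 0.57 in naringenin (adjusted p = 7.77e-05) and by 3.99 ± 0.57 in CaPO4 (adjusted p = 0.00175). After normexp correction the CaPO4 change was 0.68 and no longer called (adjusted p = 0.176), and the - probe was not called in either comparison (adjusted p = 0.947 and 0.109). The - values of controls 1 and 3 (-2.25 and -1.84) lay below the 95th percentile of their arrays' negative spots (-1.28 and -1.62).

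In humanlincRNA2199 the change ran the other way. Beside the bright + probe described above, the - probe read -4.58, -4.44 and -4.53 for controls, -3.48, -2.43 and -3.51 for CaPO4 and -1.55, -2.02 and -1.91 for naringenin. It was detected on no control and on all naringenin arrays, at least 1.29-fold higher (adjusted p = 0.00084; 0.055 after normexp), and the strand difference changed by -6.68 ± 1.08 (adjusted p = 0.000961). The naringenin values of the - probe all lay below the 95th percentile of their arrays' negative spots (-1.52, -1.65 and -1.75). Its control values lay at the floor, so a rise above background was not shown. In humanlincRNA0289 the + probe read 1.08, 0.98 and 0.94 for controls, -1.22, -2.76 and -0.46 for CaPO4 and -1.94, -2.11 and -0.79 for naringenin. Its - probe read -3.39, -3.77 and -3.49, then -0.80, -1.66 and -1.65, then -1.38, -1.13 and -0.66. In both aneurysm groups every + value lay below the + values of the controls, and every - value above the - values of the controls. The strand difference of humanlincRNA0289 changed by -4.66 ± 0.59 in CaPO4 (adjusted p = 0.00114) and by -5.10 ± 0.59 in naringenin (adjusted p = 0.000285). After normexp correction its + and - probes stayed called in opposite directions (limma adjusted p = 0.0101 and 0.0147 in CaPO4, 0.00191 and 0.00904 in naringenin).

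Further pairs were called on 1 strand or on both. The strand difference of humanlincRNA2010 changed by 5.82 ± 0.72 in naringenin against control (adjusted p = 0.000314), through the fall of its - probe, while its + probe changed by -0.33 ± 0.71 (adjusted p = 0.721). That + change was 0.04 after normexp and 0.15 without naringenin 2. In humanlincRNA0965 the + probe fell by 3.84 ± 1.07 (14.3-fold, adjusted p = 0.0156) and the - probe was at least 1.21-fold higher (adjusted p = 0.012). That rise was not called without control 2 (adjusted p = 0.0563), with no scaling (0.0949) or after normexp (change 0.21, adjusted p = 0.382). The naringenin values of that - probe (-1.80, -2.08 and -1.86) lay below the 95th percentile of their arrays' negative spots (-1.52, -1.65 and -1.75). In humanlincRNA2252 the + probe was at least 3.40-fold lower (adjusted p = 0.0021) and the - probe at least 2.27-fold higher (adjusted p = 0.0011) in naringenin. In humanlincRNA1907 the + probe was at least 5.38-fold higher (adjusted p = 0.00304), while the - probe changed by -1.83 ± 0.91 with overlapping groups (adjusted p = 0.124). The CaPO4 changes of strand difference named by the rule were 4.57 ± 0.85 for humanlincRNA2233, 3.78 ± 0.72 for humanlincRNA2010, -4.07 ± 0.60 for humanlincRNA0055 and -4.03 ± 0.74 for humanlincRNA2252 (adjusted p = 0.00552, 0.00568, 0.00187 and 0.00571).

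Naringenin against CaPO4 changed the strand difference of 5 named pairs. The changes were 3.46 ± 0.88 for humanlincRNA0933, 3.13 ± 0.77 for humanlincRNA0740, 2.5 ± 0.60 for humanlincRNA0055, -2.57 ± 0.62 for humanlincRNA1431 and -2.36 ± 0.50 for humanlincRNA0957 (limma adjusted p = 0.0484, 0.045, 0.045, 0.045 and 0.0297). None was called without CaPO4 1, without CaPO4 3, without naringenin 3 or after normexp correction. In humanlincRNA0740 the - probe was well above background on all 9 arrays, at 1.78, 1.75 and 1.93 for controls, 2.79, 0.46 and 2.64 for CaPO4 and 0.38, 0.40 and 0.16 for naringenin. CaPO4 1 and 3 were above the controls, while CaPO4 2 and the naringenin arrays were below them. That probe's change of -1.65 ± 0.55 was not called with all arrays (adjusted p = 0.115) and was -2.40 without CaPO4 2 (adjusted p = 0.000128).

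**Figure D4:**
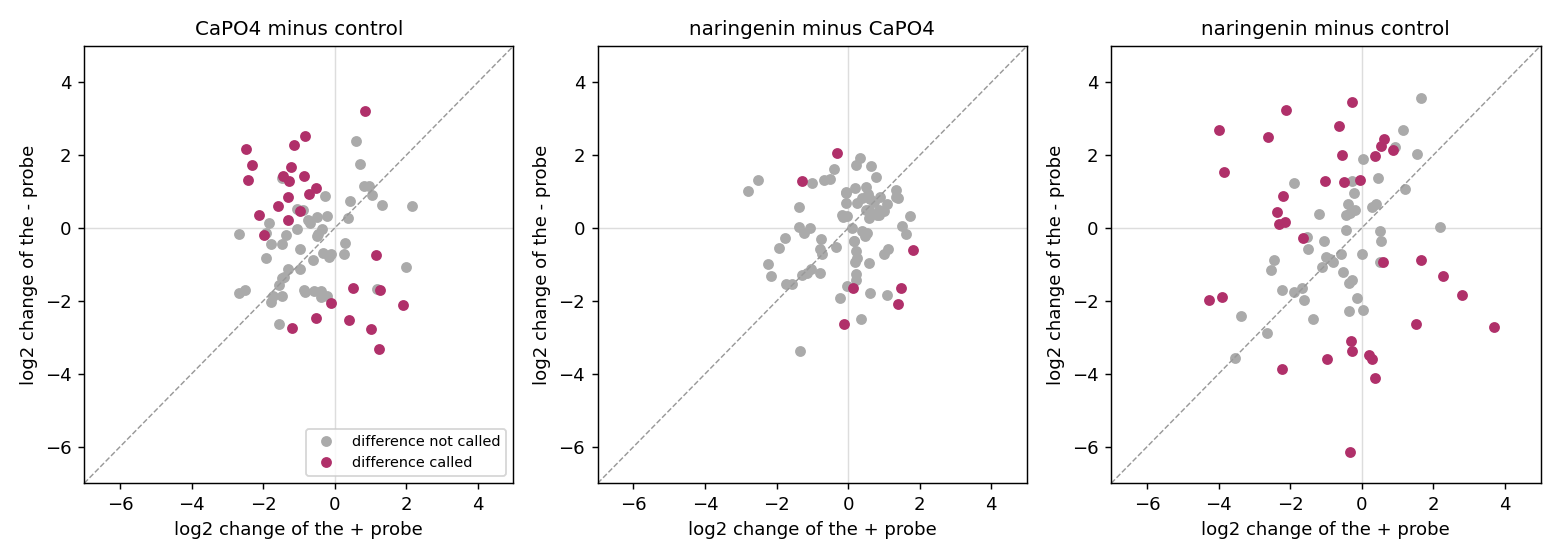
Log2 change of the - probe (vertical axis) against that of the + probe (horizontal axis) for humanlincRNA pairs with both probes kept, in each comparison; coloured points are pairs whose strand difference changed (28, 7 and 35 pairs from left to right) and the dashed line marks equal change. Points scatter on both sides of the line, and the pair at the lower right of the panel for naringenin minus control is humanlincRNA1505 (3.70 and -2.70).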

How the data were processed

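Agilent Feature Extraction 11.0.1.1 made the spot values, per the submitters' processing notes. The deposited values are background-subtracted intensity in arbitrary units with no scaling between arrays, and the deposited scanner files also give median spot and background intensity and the authors' marks for detection and outliers. The deposited table named as normalized held the same intensity within 0.0999%. Build and probe sequence were not used here. Outlier spots, controls and 1200 MM9NEGATIVE spots were left out, repeated spots averaged, and log2 intensity minus the array's 75th percentile used. A probe was kept if well above background on at least 3 of 9 arrays (37498 of 59709). No spot was saturated.

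The 3 groups were fitted in 1 limma model (limma 3.58.1, R 4.3.3, data.table in version 1.17.8, jsonlite 2.0.0), with two-sided tests, Benjamini-Hochberg adjustment over all probes tested and calls made below an adjusted p of 0.05; strand differences were fitted likewise over all strand pairs. Figures used Python 3.11.15 and matplotlib 3.10.9. Named members were, per comparison, the 5 largest called rises and falls without overlap, the 5 brightest detected on all arrays, the 3 largest called strand differences per direction and up to 3 pairs with opposite calls. The members and lists were chosen with earlier results of these data known. The fits were tested on simulated data. Alternatives of scaling, background correction, filter, scan, replicate number and arrays left out were computed.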

Additional observations from a re-analysis of the deposited data

Results flagged for a closer look

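On naringenin 3, 41.4% of the MM9NEGATIVE spots, which were left out of the fits of levels, were well above background, against 8.92 to 14.6% on the 3 controls. The same array detected 67.3% of the humanlincRNA elements by the scanner's mark and 26.3% by the 95th percentile of its own negative spots.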

How the results depend on the processing

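Some comparisons rest on few arrays, and leaving out each array in turn moved the counts of elements called from 47 higher to 22 and 65 and from 84 lower to 35 and 98 in CaPO4 minus control, from 1 and 6 to 0 to 69 and 0 to 103 in naringenin minus CaPO4, and from 86 and 122 to 64 to 100 and 88 to 148 in naringenin minus control. CaPO4 2 set most of the upper ends and the controls most of the lower ones. As shares in the same order, elements called higher were 5.33 to 15.7% (3.65 to 14.1% of all probes), 0 to 16.5% (0.064 to 25.3%) and 15.5 to 24.2% (15.8 to 31.1%). Those called lower were 8.45 to 23.7% (3.74 to 17.4%), 0 to 24.7% (0.0347 to 20.1%) and 21.3 to 35.7% (16.6 to 30.1%). Strand pairs called ranged over 16 to 33, 0 to 32 and 25 to 45, the members' median less that of all probes over -0.58 to -0.09, -0.17 to 0.20 and -0.66 to -0.23, and the mean share detected over 26.9 to 29.6%, 16.8 to 22.3% and 25.7 to 48.7% in control, CaPO4 and naringenin mice. The share of all strand pairs called was computed only with the main settings. Filters also changed how many pairs were tested, and only 11 had both probes detected on all 9 arrays. Counts of strand pairs in other settings are therefore not results about these elements. In CaPO4 minus control, elements called higher numbered 25 with the percentile taken over probes detected on all arrays, 7 with no scaling, 16 when refitted on probes detected on all 9 arrays, 23 with scan as a random block and 99 without CaPO4 2 and naringenin 3, and those called lower 168 with no scaling, 35 after normexp, 16 on all 9 arrays, 33 with the random block, 132 without both arrays and 55 with the filter on negative spots. The share of all probes called also moved. Lower calls took 40.6% of elements and 30.9% of all probes with no scaling, and 31.9 and 29.2% without both arrays. They took 7.97 and 3.69% with the random block, 11.3 and 7.35% on all 9 arrays and 18.8 and 11.1% with the filter on negative spots. Higher calls took 1.69 and 0.874% with no scaling and 23.9 and 23.7% without both arrays. They took 6.04 and 7.26% with the percentile over detected probes, 11.3 and 11.3% on all 9 arrays and 5.56 and 3.55% with the random block. The median difference in CaPO4 minus control was -0.05 after normexp, 0.15 with no filter and -0.09 without both arrays, and strand pairs called were 71, 4 and 43 with no filter, on all 9 arrays and without both arrays. In naringenin minus CaPO4, elements called lower were 1 with the percentile over detected probes (0.24%, against 0.819% of all probes), 0 with no scaling, normexp, all 9 arrays, scan as a block, scan 3 alone or only the 2 groups fitted, 2 with no filter (0.164%, against 0.372%), 3 with the random block (0.719%, against 1.19%) and 126 without both arrays (30.2%, against 24.1%). Elements called higher were 4 after quantile normalization (0.959%, against 1.33% of all probes), 2 with the filter on negative spots (0.678%, against 0.889%), 67 without both arrays (16.1%, against 34%) and 0 on all 9 arrays, with scan as a block, in scan 3 alone or with only the 2 groups. By limma 92 had an unadjusted p under 0.05 with scan as a block (22.1%, against 21.3% of all probes) and 44 in scan 3 alone. Strand pairs called were 2 after quantile normalization, 1 with the filter on negative spots, 36 without both arrays and 0 after normexp, with no filter, on all 9 arrays, with either scan setting or with only the 2 groups. The median difference was -0.19 with no filter, -0.22 on all 9 arrays, -0.17 with scan as a block or in scan 3 alone and -0.35 without both arrays. In naringenin minus control, elements called higher were 42 with no scaling, 57 after normexp and 23 on all 9 arrays, those called lower 76 and 46 with no scaling and on all 9 arrays, strand pairs 139, 4 and 18 with no filter, on all 9 arrays and with the filter on negative spots, and the median difference -0.66 without both arrays. With no scaling, 10.1% of elements were called higher and 18.4% lower in naringenin minus control, against 11.9 and 13.7% of all probes. On all 9 arrays these shares were 16.3 and 32.6%, against 22 and 23%. The control share detected was 19.3% above the 95th percentile of negative spots. Leaving out both arrays, the filter on negative spots and that detection rule were chosen after seeing the data. Some uncalled changes turned in sign: humanlincRNA2010+ to -0.10 in CaPO4 minus control with no scaling and, in naringenin minus control, to 0.04 after normexp and, with an array left out, over -0.80 to 0.15 (without naringenin 3 and 2); humanlincRNA0055+ to 1.07 with no scaling, 0.29 without CaPO4 3 and 0.23 without naringenin 1 (-0.61 without CaPO4 2), humanlincRNA0957+ to 0.88 with no scaling and humanlincRNA1431- to -0.19 after normexp, all in naringenin minus CaPO4. Single changes were followed across settings only for the probes and strand pairs named for their changes. None of those that were called turned in sign. Other called elements were not followed, and the causes were not tested.

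Replicate numbers gave no sign of pairing the arrays: deviations of same-numbered arrays correlated at -0.405 to 0.449, and those of differently numbered arrays at -0.46 to 0.447. With the number as a replicate block, elements called were 46 higher and 81 lower, 0 and 2, and 84 and 126 in the 3 comparisons in the same order, and strand pairs 26, 0 and 34. As shares the elements called were 11.1 and 19.6%, 0 and 0.48%, and 20.3 and 30.4%. Of all probes, 9.43 and 10.7%, 0.544 and 0.56%, and 22.5 and 22.9% were called. The share of all strand pairs was not computed with this block. Signal over background limits the sizes: the lower group was undetected on all 3 arrays in 29 of 47 rises and 46 of 84 falls of CaPO4 minus control. In naringenin minus control this held for 48 of 86 rises and 8 of 122 falls.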
